A study of Homo sapiens with 12 samples.

Results

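The genes described here are short human protein-coding genes that contain introns, and the measurement is the number of sequenced fragments that fell inside those introns. A gene was included when it spanned at most 10000 bases, had at least 2 exon blocks after overlapping exons were merged, and overlapped no other annotated gene on either strand. Of the 58051 genes in the count tables, 2035 met these terms. The choice used coordinates and gene type only: 5166 protein-coding genes were short enough, 3914 of them had at least 2 exon blocks, and 1879 of those were left out because they overlapped another gene. A further 4497 protein-coding genes longer than 10000 bases, chosen on the same terms, are called long genes and serve as the comparison.

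RNA came from HCT116, a line of human colon carcinoma cells, in 12 libraries that form 6 groups of 2. Cells were transfected with Oligofectamine and an siRNA, double-stranded RNA that directs the cleavage of the transcripts it pairs with. One siRNA matched PFDN2 (siPFDN2), one matched PFDN5 (siPFDN5) and one was the control (siControl), each a single duplex. The proteins targeted are subunits of prefoldin, which passes newly made actin and tubulin to the chaperonin TRiC. Every group, controls included, was deprived of serum for 48 h from 24 h after the siRNA. The groups called "before" were taken at the end of that time, and the groups called "after" 90 min after serum had been given back. Total RNA was treated with DNase, reverse transcribed from random hexamers and depleted of 18S rRNA. The labels do not say whether the 2 libraries of a group came from separate cultures, so p-values measure only the spread between these libraries, which may be technical.

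An intron is transcribed together with the exons around it and is cut out by the spliceosome, which recognises a donor site that begins with GU and an acceptor site that ends with AG. Splicing of most introns occurs while the gene is still being transcribed or soon after, and the excised intron is degraded quickly, so intronic fragments come mostly from young RNA and from introns that are retained. Exonic fragments come mostly from mature messenger RNA, whose amount also depends on how long each molecule lasts. Many of the genes that serum switches on within minutes, called immediate-early genes, are short and have few introns.

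The intron count of a gene is its gene-body count minus its exon count. Since a fragment that touched any exon base was counted as exonic, an intron count holds only fragments that lay wholly between exons. The intron share is the intron count as a percentage of the gene-body count. CPM is a count scaled to the size of its library in the usual unit, and density is the CPM per kilobase of intron or of exon. In bulk RNA, fewer cells that transcribe a gene and less RNA per cell cannot be told apart.

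The sequences of 3 intron intervals show what such a count can hold. In 14 of the short genes, 20 intron intervals lie wholly within an exon of a transcript in GENCODE 29, an annotation later than the one used for counting, so fragments there may be exonic RNA. Of the 20, several are in transcripts annotated as retained introns and several in protein-coding ones. For 17 of them the bases were read from those transcripts (GRCh38), and 14 of the 17 have the usual GT start and AG end. For RPS27, which encodes a protein of the small ribosomal subunit, the whole interval is shown (chr1:153991035-153991114, plus strand, 80 bases). For the others the first and the last 30 bases are shown, with the outermost 2 bases in capitals in each case.
RPS27 intron: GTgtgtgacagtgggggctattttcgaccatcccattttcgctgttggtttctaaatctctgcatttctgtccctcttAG
INAFM2 intron, first 30 bases: GTaagtagagtggcaagtgtttttatcttt
INAFM2 intron, last 30 bases: ataatttgtaaattgatctcttattccaAG
RPL11 interval, first 30 bases: AAgcatttttgagctgaagcagaaggaaga
RPL11 interval, last 30 bases: ctaggtgactgttggttattcctgggacAG

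INAFM2 (chr15:40325489-40326394, plus strand, 906 bases) is the short gene with the highest share among those with at least 500 gene-body counts on average, and this interval is its only intron. In the later annotation it lies inside an exon of a protein-coding transcript. The RPL11 interval (chr1:23695396-23695797, plus strand, 402 bases) starts with AA, so its first bases are not a donor site. A second RPL11 gap is 5 bases long. Among all 7438 intron intervals of the short genes, 116 were under 30 bases and 275 under 70 bases, so some gaps between exon blocks may be differences between annotated transcripts and not introns.

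Gene-body counts of all genes came to between 59784425 and 136504590 per library. The short genes held between 1859910 and 4870344 of these, of which 27065 to 70814 were intronic. As a check of the labels, PFDN2 measured 11.6 and 11.2 CPM without serum and 19.03 and 16.3 CPM with it under siControl, and 7.57 to 9.54 CPM in all 4 siPFDN2 libraries, below every control library. PFDN5 ranged from 66.2 to 77.5 CPM over the 4 siControl libraries. It was lower in siPFDN5 before serum, with 39.8 and 43.2 CPM, but not after serum, where the libraries with that label had 67.3 and 67.9 CPM and overlapped siControl. Those 2 libraries are therefore called by their label throughout. Both targets overlap another gene and counting ignored the strand. Across genes, the deviation of a library from the mean library followed GC content in siPFDN2 before serum replicate 2 (Spearman's rho 0.815) far more than in the other 11 libraries (-0.463 to 0.124). In siControl after serum replicate 1 the long genes had an intron share of 11.4%, against 6.24% in replicate 2. Epithelial markers were present in every library (EPCAM at 162 to 239 CPM, KRT8 at 654 to 1182 CPM), and of the markers of other cells PTPRC of leukocytes reached at most 0.139 CPM and DCN of fibroblasts at most 0.0695 CPM. COL1A1 of fibroblasts stood at 3.97 to 16.8 CPM, CD68 of macrophages at 2.64 to 4.195 CPM and DES of muscle at 1.22 to 2.29 CPM, and their part in the results was not tested.

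Most short genes gave few intronic fragments. Introns made up 57.5% of the summed length of the short genes but between 0.888% and 1.71% of their counts in any library. The median short gene was 5205 bases long with 3 introns, and the median intron was 450 bases. In 468 of the 2035 genes no intronic fragment was counted in any library, and part of these had no count at all over the gene body. The 805 genes with at least 100 gene-body counts on average had a median share of 1.61% over the 12 libraries, with 311 of them under 1% and 78 at or above 10%. Their median intron density was 0.107 and their median exon density 6.21 CPM per kilobase.

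The length of the longest intron went with the share. In the 43 genes whose longest intron was under 200 bases, 0.0189% of counts were intronic. This rose to 0.258% from 200 bases (106 genes), 0.668% from 500 bases (160 genes), 1.75% from 1000 bases (221 genes), 2.64% from 2000 bases (208 genes) and 2.945% from 4000 bases (67 genes), each class ending where the next begins. Across the 805 genes Spearman's rho between share and longest intron was 0.609, a description over genes that share the same libraries. Of single introns, 28.7% were under 200 bases, where a fragment longer than the intron cannot lie between exons. Per base the relation was weaker: the median ratio of intron density to exon density was 0.0512% below 200 bases, 0.948% from 200 bases, 2.11% from 500 bases and 1.14% from 4000 bases. The same ratio had a median of 1.70% over the 805 short genes and of 1.62% over 2896 long genes, while introns made up 89.6% of the length of long genes.

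**Figure D1:**
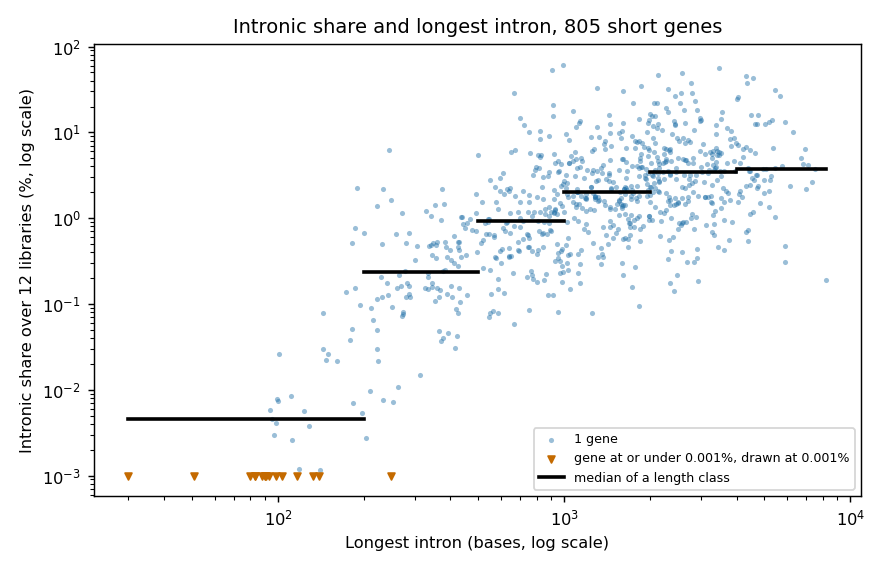
Each point is 1 of 805 short genes, with the length of its longest intron on the horizontal axis (bases, log scale) and the intron share of all its counts over 12 libraries on the vertical axis (percent, log scale). Black lines are medians of the 6 length classes, and triangles mark genes at or under 0.001%; genes whose longest intron was under 200 bases lie near the bottom, with a median of 0.00450%.

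Among genes with at least 500 gene-body counts on average, 3 had no intronic fragment in any library. These were ID3, an inhibitor of basic helix-loop-helix transcription factors (0 of 49605 counts, which allows a share of up to 0.00605%), HES4 (0 of 8952, up to 0.0335%) and TMEM52 (0 of 7273, up to 0.0412%), limits that cover counting error only. Their longest introns were 51, 93 and 90 bases. FOS, the immediate-early gene for a subunit of the transcription factor AP-1, had a mean of 0.167 intronic counts, with a longest intron of 111 bases. FOS therefore had too few intronic counts to test, although its exon counts rose by 2.34 (log2) after serum.

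The highest shares among genes of that depth belonged to INAFM2 (52.8%), ZC3H12A, which encodes an endoribonuclease of immune messenger RNAs (25.7%), TIMM29, a subunit of a mitochondrial import complex (21.8%), SLC22A31 (20.7%), ZBTB3 (19%) and VCPKMT, a lysine methyltransferase that acts on VCP (18.4%). INAFM2 lay between 50% and 54.8% in all 12 libraries, and the other 5 genes have no intron that the later annotation covers with an exon. The start of VCPKMT lies 519 bases from SOS2, a gene on the same strand upstream of it that had 6849 gene-body counts on average, against 700.1 for VCPKMT. CARM1 lies 5662 bases upstream of TIMM29 on the same strand and had 5399 counts, against 983.0 for TIMM29. The part of these neighbours in the counts was not tested. The highest intron densities were in INAFM2 (4.50), SAT1 (3.92), TRIB1 (3.69), DKK1 (3.44), AREG (2.46) and RPL41 (2.25 CPM per kilobase), and 4 of these 6 genes are described below for their response to serum. In RPL41, a ribosomal protein gene with many processed copies elsewhere in the genome, the counts are uncertain for that reason.

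Near the length limit, the longest genes included were FAM216B (10000 bases), NCR1 (9991 bases) and SEMA3B (9989 bases), with a mean of 0.167, 0.583 and 22.8 intronic counts. The shortest genes excluded by it were SFXN3 (10011 bases), FGF20 (10013 bases) and CMTM3 (10019 bases), with 78.6, 0.0833 and 74.9. FAM216B, NCR1 and FGF20 had under 1 gene-body count on average.

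Summed over the short genes, 1.65% and 1.365% of counts were intronic in siControl before serum and 1.69% and 1.45% after it. The share was 1.45% and 1.71% in siPFDN2 before serum and 1.54% and 1.13% after it. It was 1.455% and 1.37% in siPFDN5 before serum, and 0.942% and 0.888% in the libraries labelled siPFDN5 after serum. Those 2 libraries had the lowest shares of all 12, while the other 5 groups overlapped one another. Counting error was small beside this spread: the 95% Wilson interval of the first library ran from 1.64% to 1.67%. On average over the 3 siRNAs the share fell by 0.226 percentage points after serum, a difference within the spread between libraries (exact permutation test within siRNA, two-sided, p = 0.111; the smallest p this design allows is 0.00926). Without the 20 genes with the most counts the fall was 0.390 points and passed (exact permutation test, p = 0.0278). By siRNA, the change was 0.0631 points in siControl, -0.242 points in siPFDN2 and -0.497 points in siPFDN5.

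The sum is weighted to a few abundant genes, since the 20 short genes with the most counts held 32.6% of gene-body counts. The median share over the 805 genes was 1.84% and 1.63% in siControl before serum and 1.78% and 1.55% after it, 1.70% and 1.97% and then 1.605% and 1.17% in siPFDN2, and 1.73% and 1.59% and then 1.03% and 0.965% in siPFDN5. The libraries labelled siPFDN5 after serum were again the lowest of the 12. The median fell by 0.393 points on average over the 3 siRNAs (exact permutation test, p = 0.0278). Over the genes whose longest intron had at least 500 bases it fell by 0.490 points and did not pass (exact permutation test, p = 0.0648). Without the 4 siPFDN5 libraries the fall was 0.256 points and did not pass (exact permutation test, p = 0.167), and without either replicate 2 of siPFDN2 or siControl after serum, or without siPFDN2 before serum replicate 2 or siControl before serum replicate 1, p lay between 0.0556 and 0.0741 in the same exact permutation test.

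**Figure D2:**
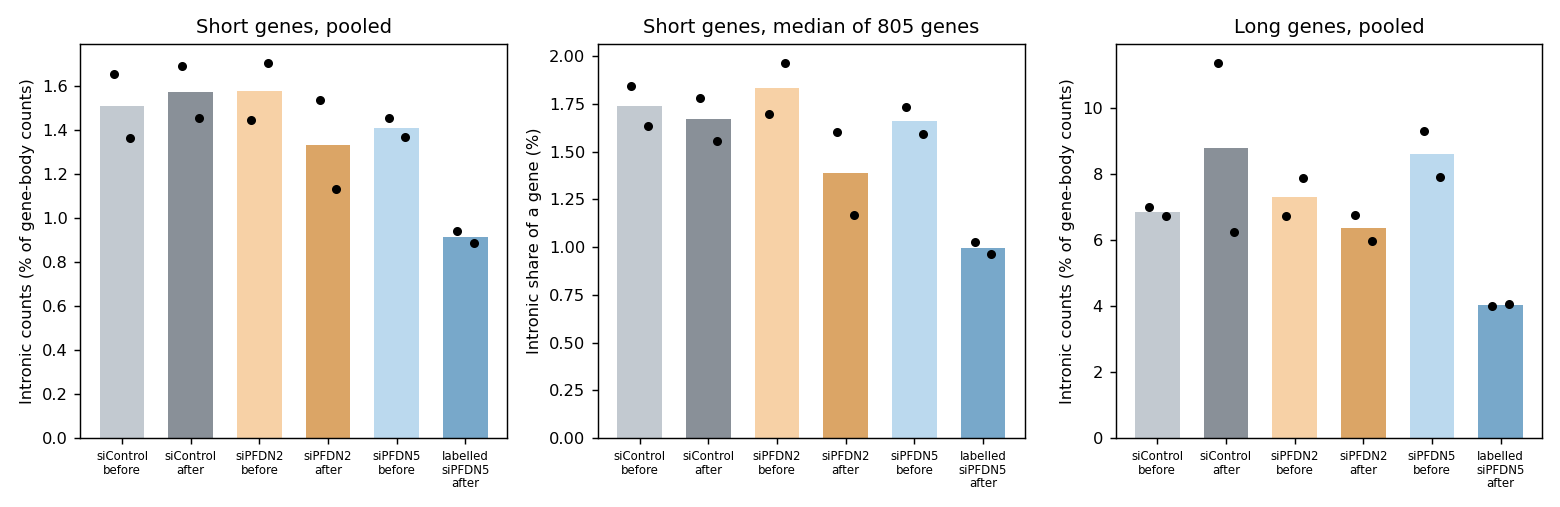
Bars show the mean and points the 2 libraries of each group, for the intron share of the short genes as a sum (left, percent of gene-body counts), its median over 805 short genes (middle, percent) and the sum over 4497 long genes (right, percent of gene-body counts). The 2 libraries labelled siPFDN5 after serum are the lowest in all 3 panels, and siControl after serum replicate 1 stands at 11.4% among the long genes.

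The intron and exon densities show which part of the ratio differed. In siPFDN5, the intron density of the short genes was 0.0667 and 0.0642 CPM per kilobase before serum, and 0.0645 and 0.0615 in the libraries with the siPFDN5 label after it, a ratio of 0.963. Their exon density was 6.12 and 6.27 before and 9.19 and 9.31 after, a ratio of 1.49, and these 2 libraries were the highest of all 12. In siControl the ratios of after to before were 1.11 for intron and 1.07 for exon density, and in siPFDN2 they were 0.893 and 1.07. The intron densities of the 12 libraries ranged from 0.0615 to 0.103. In the long genes of siPFDN5 the intron density fell from 0.0601 and 0.0519 to 0.0311 and 0.0307 (ratio 0.552), and the exon density changed from 5.06 and 5.205 to 6.41 and 6.265 (ratio 1.24). Against siPFDN5 before serum, the lower share thus went with a higher exon density in the sum over short genes. The median over short genes with at least 100 gene-body counts on average differed in both parts. Its intron density was 0.1004 and 0.09639 in siPFDN5 before serum, and 0.07552 and 0.07685 in the libraries of that label after it. Its exon density was 5.01 and 5.106 before and 6.79 and 6.844 after. Against siControl after serum, the ratios of the summed densities in short genes were 0.756 for intron and 1.30 for exon density. In long genes they were 0.5003 and 1.135. These densities were scaled by factors from all gene-body counts. The log2 ratio of the short-gene share to the long-gene share changed by 0.06 on average after serum, within the spread between libraries (exact permutation test, p = 0.731).

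Between the siRNAs, the pooled share of siPFDN2 minus that of siControl was -0.0848 percentage points (exact permutation test within serum state, two-sided, p = 0.667) and that of siPFDN5 minus siControl was -0.377 points (exact permutation test, p = 0.167). The 36 arrangements of such a comparison cannot give a p below 0.0556. The siPFDN5 value was the mean of -0.0970 points before serum and -0.657 points after it, and the second rests on the libraries in which PFDN5 was not lowered.

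Gene by gene, 710 of the 2035 short genes had enough intronic fragments to be tested with edgeR's quasi-likelihood test. It was run over all 19755 genes with introns that passed its filter. Those were of any type and length and included genes that overlap others. Averaged over the 3 siRNAs, intron counts of 58 short genes rose after serum, 8.17% of those tested, against 6.28% of all genes tested. They fell in 177, which is 24.9% against 25.9%. Exon counts were tested in 1074 short genes and rose in 129 (12%, against 6.71% of all genes) and fell in 87 (8.10%, against 4.45%). Without siPFDN2 before serum replicate 1, exon counts were called in 654, and without replicate 2 of that group in 439. The split of the intron counts depends on the scaling, because the median of all genes lay at -0.27 (log2) when libraries were scaled by gene-body counts. When they were scaled by intron counts, which sets that median to -0.00, 95 short genes rose and 84 fell. DESeq2, whose own scaling also came from the intron counts, gave 89 and 67. The removal of each library's GC trend, which took out its level as well, gave 119 and 78. The 4 siPFDN5 libraries added many of the calls, since without them 43 rose and 73 fell.

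Within single siRNAs, intron counts of 34 short genes rose and 13 fell after serum in siControl (background 4.75% and 0.85%), 24 rose and 60 fell in siPFDN2 (2.66% and 7.04%), and 30 rose and 82 fell in siPFDN5, whose labels are in doubt after serum (2.7% and 37.5%). Scaled by intron counts the numbers were 39 and 25, 40 and 48, and 110 and 14. The siPFDN2 counts depended most on single libraries, with between 16 and 224 genes called when 1 library was left out. Without siPFDN2 before serum replicate 2, the library with the GC trend, 17 were called in siPFDN2. In siControl 18 were called without siControl before serum replicate 1, and in siPFDN5 29 without siPFDN5 after serum replicate 2.

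Among short genes with at least 50 intronic counts on average, the largest rise was in an immediate-early gene. Genes named for their change in intron counts or share had to have groups that do not overlap in each siRNA. The lack of overlap in that measure, here and below, is thus part of the choice. CYR61 (chromosome 1, also named CCN1), which encodes a secreted matrix protein, had intron levels of 0.0434 and 0.0469 CPM in siControl before serum and 1.67 and 1.59 CPM after it. In siPFDN2 they were 0.0636 and 0.0950 CPM and then 1.67 and 1.835 CPM, and in siPFDN5 0.108 and 0.0289 CPM and then 1.99 and 1.79 CPM. All 6 libraries after serum lay above all 6 before, with no overlap. The log2 change was 4.78 (SE 0.23, edgeR's quasi-likelihood test, adjusted p 2.9e-08). Its exon counts changed by 5.96 (adjusted p 5.0e-10), so its share fell by 1.18 on the log2 scale (adjusted p 0.0159).

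EGR1, a zinc-finger transcription factor with a single intron of 688 bases on chromosome 5, differed from CYR61 in that its introns did not rise. Its exon level was 25.7 and 15.9 CPM in siControl before serum and 133.9 and 83.2 CPM after it, and it was 14.8 and 29.3 CPM and then 78.3 and 104.3 CPM in siPFDN2. In siPFDN5 it was 44.6 and 55.7 CPM and then 49.0 and 76.2 CPM, where the groups overlapped. Its intron level was 0.967 and 0.656 CPM before and 0.604 and 0.342 CPM after in siControl, 0.668 and 1.11 and then 0.495 and 0.706 CPM in siPFDN2, and 0.820 and 0.926 and then 0.574 and 0.579 CPM in siPFDN5. The share of EGR1 therefore fell from 3.625% and 3.97% to 0.449% and 0.410% in siControl, from 4.32% and 3.65% to 0.629% and 0.673% in siPFDN2, and from 1.81% and 1.64% to 1.16% and 0.754% in siPFDN5. All libraries before serum lay above all libraries after it. The log2 change of the intron-to-exon ratio was -2.25 (SE 0.16, edgeR's quasi-likelihood test, adjusted p 1.9e-05), with -0.65 for intron counts (adjusted p 0.0298) and 1.58 for exon counts (adjusted p 0.000408). The intron counts averaged 61.4 per library.

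Of 52 immediate-early genes listed, 50 were in the tables and 25 were short genes of this kind. In exon counts 23 of them rose and none fell, beside 6.71% of all genes higher and 4.45% lower. Intron counts could be tested in 19, of which 10 rose and 2 fell, beside 6.28% of all genes higher and 25.9% lower. Their median log2 change was 0.78 against -0.27 over all genes. That median was positive under each of the 4 other scalings, from 0.66 to 1.17. The share fell in 8 of the 19 and rose in 1, beside 22.2% of all genes lower and 2.47% higher. Its median was -0.48 against -0.28 over all genes. The one that rose was MYC, a transcription factor of growth control, with a log2 change of 0.64 in the ratio (adjusted p 0.0114), 1.22 in intron counts and 0.58 in exon counts. KLF6 and TRIB1 rose in both parts alike: KLF6, a zinc-finger factor, by 2.23 in intron and 2.52 in exon counts, and TRIB1, a pseudokinase, by 1.35 and 1.61, and neither share passed the test. BTG2 and PPP1R15A rose in exon counts by 1.34 and 1.73 while their intron counts, -0.43 and 0.56, did not pass the test. The 2 that fell in intron counts were EGR1 and SNAI1, a repressor of epithelial genes, at -0.97. FOS, EGR4, DUSP2, ARC, ID3 and HES1 had too few intronic counts to be tested.

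FOSL1, which encodes the AP-1 subunit FRA1, rose in both parts but more in exons. Its intron level was 3.41 and 2.26 CPM in siControl before serum and 10.8 and 8.43 CPM after it, 2.55 and 5.225 and then 9.73 and 6.20 CPM in siPFDN2, and 2.54 and 2.445 and then 4.14 and 4.24 CPM in siPFDN5. Its share fell from 15.8% and 10.9% to 7.06% and 5.83% in siControl, from 9.06% and 8.44% to 6.78% and 4.20% in siPFDN2, and from 9.245% and 8.37% to 3.11% and 2.60% in siPFDN5, without overlap in any of the 3. The log2 change of the ratio was -1.21 (SE 0.18, adjusted p 0.00118). AREG, the EGF receptor ligand amphiregulin, had the most intronic fragments of all short genes, 1753 per library on average. Its intron level rose from 10.1 and 9.57 to 33.6 and 31.6 CPM in siControl, from 9.665 and 4.855 to 38.1 and 28.4 CPM in siPFDN2, and from 13.3 and 12.45 to 27.6 and 23.7 CPM in siPFDN5, again without overlap. The log2 change was 1.64 for intron and 2.27 for exon counts, and the share fell by 0.62 (adjusted p 0.0117). PMAIP1, the pro-apoptotic factor NOXA, rose by 1.675 in intron and 2.245 in exon counts. Among 8 chemokine and cytokine genes, 3 could be tested for introns and all 3 rose, beside 6.28% of all genes. CXCL8 rose by 6.97, CCL20 by 3.74 and CXCL2 by 1.92, on means of only 18.8, 4.50 and 10.1 intronic counts.

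**Figure D3:**
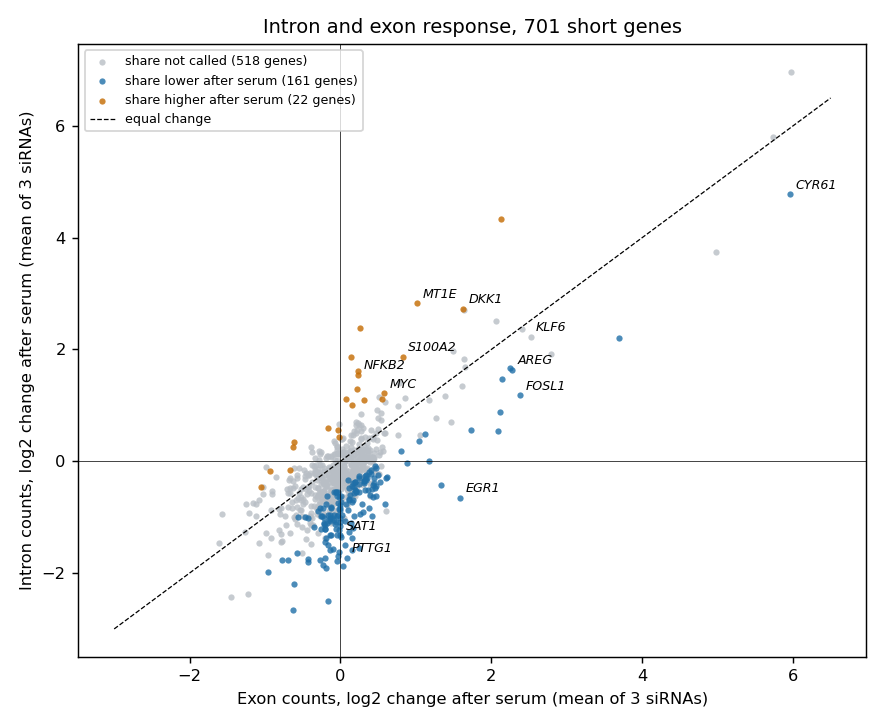
Each point is 1 of 701 short genes, with the log2 change after serum of its exon counts on the horizontal axis and of its intron counts on the vertical axis, both averaged over the 3 siRNAs. The dashed line marks equal change; 161 genes with a lower share (blue) lie below it, EGR1 with -0.65 for introns among them, and 22 with a higher share (orange) lie above it.

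The promoters of 4 genes are shown because serum moved their introns or exons and their sequences hold matches to known motifs. KLF6, PMAIP1 and RGS2, which also rose, held no match in the same window, and S100A16 held 1, for the TEAD motif. No promoter was found in the RefSeq table for CYR61, MT1E, GADD45A and FOSL1, so these were not searched. The sequences are the 250 bases before the start in the RefSeq table (GRCh38.p14): AREG (chr4:74444886-74445135, plus strand), DKK1 (chr10:52314031-52314280, plus strand), EGR1 (chr5:138465229-138465478, plus strand) and S100A2 (chr1:153565845-153566094, minus strand). Both strands were searched for the TATA box (spelled TATAAA) and the AP-1 motif (spelled TGANTCA). The cyclic AMP response element was spelled TGACGTCA. The TEAD motif was spelled GGAATG, and the NF-kB motif was GGG, any 2 bases, then TTTCC. The CArG box of serum response factor was the last. No other rule was set for overlaps, and matches are in capitals.
AREG: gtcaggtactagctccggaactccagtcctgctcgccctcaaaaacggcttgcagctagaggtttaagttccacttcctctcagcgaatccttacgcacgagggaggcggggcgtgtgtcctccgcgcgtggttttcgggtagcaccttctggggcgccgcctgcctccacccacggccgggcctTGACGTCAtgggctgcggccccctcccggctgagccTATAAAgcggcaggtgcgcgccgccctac
DKK1: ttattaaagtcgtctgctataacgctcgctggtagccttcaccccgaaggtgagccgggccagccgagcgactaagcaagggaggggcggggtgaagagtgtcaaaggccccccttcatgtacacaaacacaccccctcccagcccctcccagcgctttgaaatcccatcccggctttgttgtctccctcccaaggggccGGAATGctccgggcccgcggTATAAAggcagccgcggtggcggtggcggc
EGR1: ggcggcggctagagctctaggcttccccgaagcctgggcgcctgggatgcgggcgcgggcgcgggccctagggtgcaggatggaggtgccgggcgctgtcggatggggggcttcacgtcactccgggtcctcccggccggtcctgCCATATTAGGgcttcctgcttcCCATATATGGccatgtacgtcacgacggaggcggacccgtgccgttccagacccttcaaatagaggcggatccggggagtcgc
S100A2: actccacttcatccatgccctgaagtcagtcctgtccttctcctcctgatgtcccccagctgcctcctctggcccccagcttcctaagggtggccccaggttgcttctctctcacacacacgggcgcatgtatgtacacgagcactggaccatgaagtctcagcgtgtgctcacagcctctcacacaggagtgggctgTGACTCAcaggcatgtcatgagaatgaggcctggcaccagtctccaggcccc

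EGR1 holds 2 CArG boxes in this window, at -105 to -96 and -83 to -74 from the start, and 1.16% of all 35116 promoters of the table hold one. AREG and DKK1 have a TATA box at -29 and -30, which 10.7% of all promoters have anywhere in these 250 bases, and AREG has a cyclic AMP response element (1.65% of all). Of the 58 short genes whose intron counts rose, 43 were found in the table: 8 held TATAAA (18.6%), 6 held TGANTCA (14%, against 6.57% of all promoters), 3 held TGACGTCA (6.98%), 7 held GGAATG (16.3%, against 11.9%), 4 held the NF-kB motif (9.3%, against 1.73%) and none a CArG box. Of the 177 that fell, 133 were found, and 5 held TATAAA (3.76%), 7 TGANTCA (5.26%), 2 TGACGTCA (1.5%), 8 GGAATG (6.02%), 1 the NF-kB motif (0.752%) and 4 a CArG box (3.01%). Of the 475 tested short genes not called, 372 were found. Of these 6.72% held TATAAA, 4.84% TGANTCA, 2.69% TGACGTCA, 9.95% GGAATG, 1.34% the NF-kB motif and 2.69% a CArG box. Over all 1480 short genes found, tested or not, 14.7% held TATAAA and 2.36% a CArG box. A match is a description of the letters and not a bound site.

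In another group of genes the introns rose more than the exons. DKK1, a secreted inhibitor of WNT signalling, had an intron level of 0.554 and 1.45 CPM in siControl before serum and 7.06 and 9.69 CPM after it, 1.09 and 0.5985 and then 10.1 and 7.54 CPM in siPFDN2, and 3.235 and 2.62 and then 10.4 and 9.24 CPM in siPFDN5. The groups did not overlap. The log2 change was 2.73 for intron counts (SE 0.24) against 1.63 for exon counts, and the ratio changed by 1.155 (adjusted p 0.00193). The share rose from 0.633% and 1.265% to 3.585% and 3.10% in siControl and from 1.20% and 0.841% to 3.36% and 2.78% in siPFDN2, but it was 2.63% and 2.15% before and 2.37% and 2.24% after in siPFDN5, where the groups overlapped. Whether the serum responses differ between the siRNAs was not tested.

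MT1E, a metal-binding metallothionein with close paralogues whose fragments may be shared, had a share of 0.431% and 0.5795% in siControl before serum and 1.08% and 2.07% after it. In siPFDN2 it was 0.463% and 0.552% and then 3.26% and 2.19%, and in siPFDN5 0.363% and 0.5045% and then 1.26% and 0.8055%. Every library after serum lay above every library before it. The ratio changed by 1.76 (SE 0.24, adjusted p 0.000834), with 2.82 for intron and 1.02 for exon counts. S100A2, a calcium-binding protein, had a share of 11.95% and 10.2% and then 21.8% and 17.6% in siControl, 5.81% and 8.94% and then 16.2% and 16.7% in siPFDN2, and 11.1% and 7.72% and then 16.6% and 16.3% in siPFDN5, without overlap. Its ratio changed by 1.07 (adjusted p 0.00175). S100A16 of the same family changed by 1.42 in the ratio and NFKB2, a subunit of NF-kB, by 1.32, and neither passed the test in exon counts (0.23 and 0.23). GADD45A, a stress sensor of the cell cycle, rose by 1.98 in intron and 1.49 in exon counts, and its share did not pass the test. RGS2, a regulator of G protein signalling, rose by 1.84 in intron counts, with 1.64 for exon counts, and its share did not pass the test.

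The 10 genes named for falling introns were led by PTTG1, whose exon counts did not pass the test. PTTG1, which encodes securin, the inhibitor of separase, had an intron level of 1.44 and 1.23 CPM in siControl before serum and 0.3485 and 0.350 CPM after it, 1.67 and 0.960 and then 0.512 and 0.387 CPM in siPFDN2, and 1.25 and 1.26 and then 0.504 and 0.278 CPM in siPFDN5. All libraries after serum lay below all before it. The log2 change was -1.73 for intron counts (SE 0.20, adjusted p 6.4e-05) and 0.08 for exon counts. UBE2C, the ubiquitin-conjugating enzyme of the anaphase-promoting complex, changed by -1.50 in intron counts and 0.06 in exon counts, and GCAT, a mitochondrial enzyme of threonine breakdown, by -1.70 and -0.03. SAT1, which acetylates spermidine and spermine, changed by -1.325 in intron counts (adjusted p 0.000105) and -0.0035 in exon counts, with intron levels from 4.59 and 2.88 to 1.32 and 1.27 CPM in siControl. The other 6 were PLEKHH3, C1QTNF8, SHISA8, LGALS3BP, ZNF692 and SLC26A6, at -1.38 to -1.02, and of the 10 only ZNF692 also fell in exon counts (-0.61). In intron counts all 10 stayed below 0 and past the threshold in each alternative fit of the averaged response.

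The intron share itself could be tested in 701 short genes, with edgeR's quasi-likelihood test of the intron-to-exon ratio over all 17303 genes. Averaged over the siRNAs it rose in 22 (3.14%, against 2.47% of all genes) and fell in 161 (23%, against 22.2%), with a median log2 change of -0.35 against -0.28. In siControl alone 4 rose and 7 fell (0.688% and 0.295% of all genes), in siPFDN2 2 and 5 (0.26% and 0.462%), and in siPFDN5, with the same doubt, 6 and 173 (0.792% and 44.2%). Most of the calls of the averaged response rest on the siPFDN5 libraries: without them 8 rose and 17 fell. With the GC trend of each library removed the averaged split was 63 and 83, and the siPFDN5 split 42 and 20. That removal also took out each library's level in intron and in exon counts, and so any fall in share common to all genes. Which of these parts changed the split was not tested. In siPFDN5 only 7 calls were left without siPFDN5 before serum replicate 1. Leaving out 1 library gave between 102 and 260 calls for the average, the lowest without siPFDN5 before serum replicate 1 and the highest without siControl after serum replicate 1. Of the 701 genes, 95 fell in introns and share with no call in exons, 9 rose in introns and exons and fell in share, 16 rose in exons and fell in share without a call in introns, and 6 rose in all 3.

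**Figure D4:**
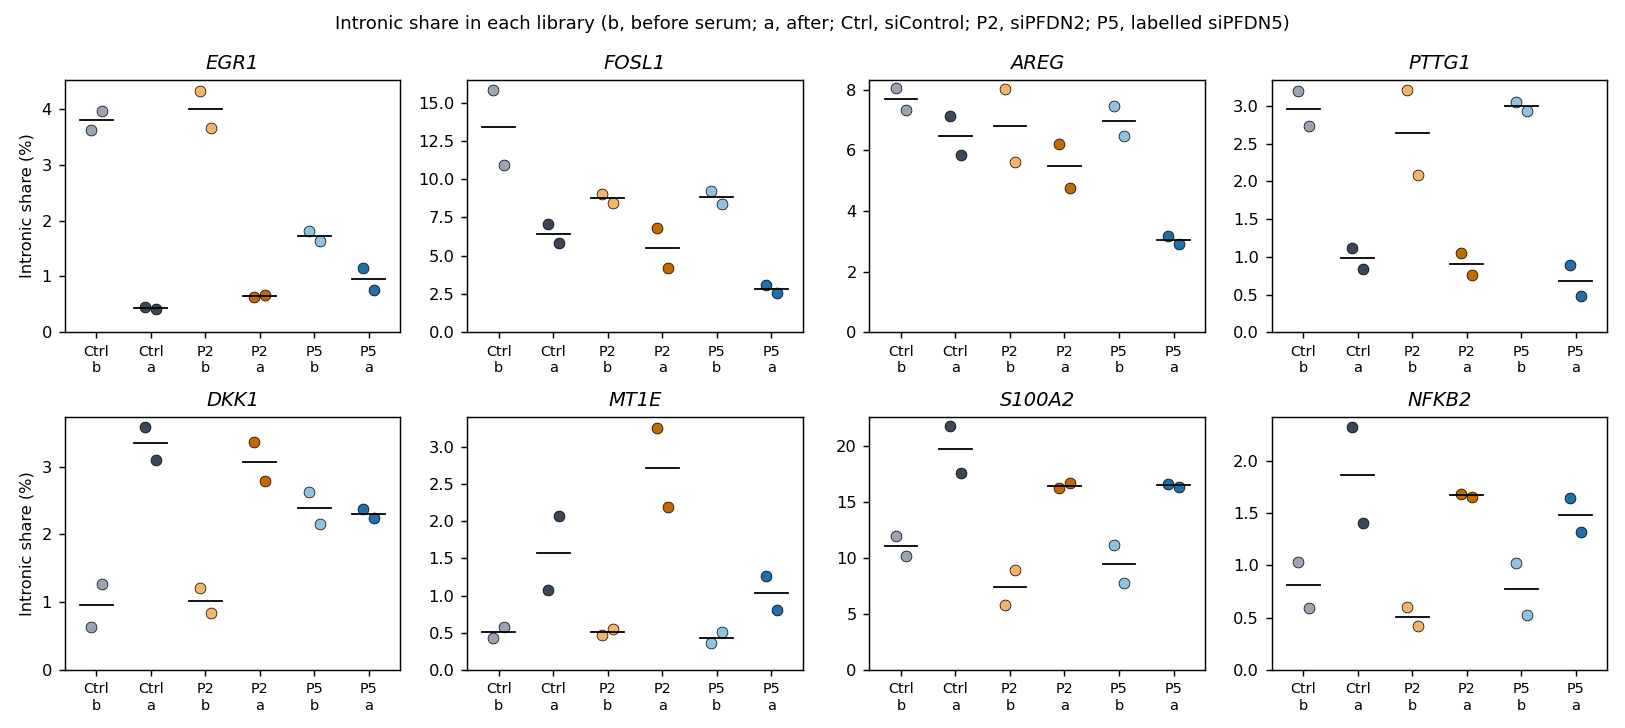
Points are the intron share (percent of gene-body counts) in each of the 12 libraries for 8 genes, with a line at the mean of the 2 libraries of a group. The share of EGR1, FOSL1 and PTTG1 is lower after serum in all 3 siRNAs, that of MT1E, S100A2 and NFKB2 higher, and that of DKK1 higher in siControl and siPFDN2 only, while its siPFDN5 groups overlap.

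Of 79 genes for cytosolic ribosomal proteins found in the tables, 17 were short genes of this kind. RPLP0, an acidic protein of the large subunit, had 131200 gene-body counts on average and a share of 0.0776%, RPL19 0.227%, RPL11 0.3825% and RPL8 0.0453%, and many processed copies of these genes elsewhere make the counts uncertain. In 13 that could be tested, the averaged serum response lowered intron counts in 2 and raised them in none, with a median of -0.24 against -0.27 over all genes. That median turned to 0.04 when libraries were scaled by intron counts and also by DESeq2, whose own scaling came from intron counts too. Exon counts rose in 7 of 17 (6.71% of all genes), and the share fell in 8 of 13 (22.2% of all genes), with a median of -0.57 against -0.28. By siRNA, exon counts were called higher in 0 in siControl (median -0.01), 0 in siPFDN2 (median 0.26) and 10 in siPFDN5 (median 0.62), whose libraries after serum did not have lower PFDN5. Over all genes the exon medians were -0.06, -0.04 and 0.15. The share of all genes called in exon counts within single siRNAs is not given here. The share was called lower in 0, 1 and 3 of the 13, beside 0.295%, 0.462% and 44.2% of all genes. RPL27 had the largest fall in share, 1.06 on the log2 scale (edgeR's quasi-likelihood test, adjusted p 0.00425), with its intron counts at -0.63 and its exon counts at 0.43.

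Among 15 short genes for subunits of the respiratory chain and ATP synthase, intron counts fell in 6 and rose in none, beside 25.9% of all genes lower. Their median was -0.46 against -0.27 over all genes, and it turned to 0.01 with each library's GC trend and level removed. The share fell in 7 (median -0.63), beside 22.2% of all genes, and exon counts rose in 1. Intron counts were called lower in 0 in siControl, 1 in siPFDN2 and 5 in siPFDN5, beside 0.85%, 7.04% and 37.5% of all genes. For the share the calls were 0, 1 and 8, beside 0.295%, 0.462% and 44.2% of all genes. NDUFB1, a subunit of complex I, had a share of 5.26% and 5.82% and then 3.46% and 3.22% in siControl, 5.95% and 12.9% and then 3.46% and 2.155% in siPFDN2, and 5.21% and 4.26% and then 1.48% and 1.42% in siPFDN5. The 12.9% is in siPFDN2 before serum replicate 2, the library with the GC trend, but the groups do not overlap in any siRNA. NDUFB10 changed by -1.59 in intron counts on a mean of 33.0 counts. NDUFA4 and CYCS, at 0.43 and 0.51 in intron counts, did not pass the test.

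Of 5 short genes for splicing factors, exon counts rose in 2 in the averaged response (6.71% of all genes), SRSF6 by 0.55 and SRSF7 by 0.57. By siRNA, 0 were called in siControl, 0 in siPFDN2 and 2 in siPFDN5, where the exon median was 0.75 against 0.15 over all genes. The share of all genes called there in exon counts is not given. Both encode SR proteins whose own transcripts are known to be spliced in alternative forms. Their intron counts, 0.25 and 0.18, did not pass the test. SRSF7 had 445.2 intronic counts on average and a share between 2.67% and 4.55% in all libraries. SF3B4, a subunit of the SF3b complex, had the highest share of the 5, 7.825%, and passed no test. The share of SNRPE and MAGOHB fell, by 0.96 and 0.61, and the intron counts of SNRPE fell by 0.45.

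Of 4 short p53 target genes, GADD45A rose and BAX (-0.54) and CCNG1 (-0.68) fell in intron counts, beside 6.28% of all genes higher and 25.9% lower. Of 3 actin, tubulin or actin-binding genes, TUBB2A rose by 0.99 in intron and 0.76 in exon counts, TAGLN2 did not pass, and TMSB4X had too few intronic counts to test. Among 5 proteasome genes, none passed in the averaged response, with 5 tested in exon counts and 3 in intron counts and share. In siPFDN5 alone 4 of 5 rose in exon counts and 1 of 3 fell in share, beside 44.2% of all genes lower in share. The exon median there was 0.74 against 0.15 over all genes, whose share of calls in exon counts is not given. All 3 had a lower share in the libraries labelled siPFDN5 than in siControl after serum, beside 38.4% of all genes. HSP90AB1, a cytosolic chaperone with 211900 gene-body counts on average, and HSPA5, the chaperone of the endoplasmic reticulum, did not pass either, and the glycolytic enzyme PGAM1 fell in share by 0.56. Among epithelial genes, KRT19 rose in intron counts by 1.00 and in share by 0.85 with its exons at 0.15 (not passed), KRT20 rose in both parts, and CDX2, an intestinal transcription factor, fell by 1.00 in introns.

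Between siRNAs before serum, no short gene passed in intron counts or in share. For siPFDN2 against siControl, none of all genes passed either (0.0% in each measure); at an unadjusted p under 0.05 there were 55 short genes for intron counts and 37 for the share, and DESeq2 also called none in intron counts. For siPFDN5 against siControl, 0.0405% of all genes passed in intron counts and 0.0% in share, with 75 and 60 short genes at an unadjusted p under 0.05, and DESeq2 called 6 short genes in intron counts. After serum, siPFDN2 against siControl gave no call in either measure among all genes (0.0% and 0.0%), with 23 and 30 short genes at an unadjusted p under 0.05 and none by DESeq2. The share of all genes at that unadjusted p is not given, so these counts are not read as a difference in the short genes.

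In the edgeR test, calls between siRNAs appeared only for the libraries labelled siPFDN5 after serum against siControl after serum, in which PFDN5 was not lowered. There edgeR called intron counts higher in 1 short gene and lower in 55 (0.141% and 7.75%, against 0.506% and 33.5% of all genes), and the share higher in 3 and lower in 176 (0.428% and 25.1%, against 0.474% and 38.4%). Since all genes include overlapping ones and genes of any type and length, these rates do not compare like with like. The median log2 change over short genes was -0.41 in intron counts, 0.22 in exon counts and -0.66 in share, against -0.68, 0.09 and -0.75 over all genes tested. No short gene passed in exon counts, and 315 had an unadjusted p under 0.05, a count given without the share over all genes. Without siControl after serum replicate 1, or without either of the 2 libraries labelled siPFDN5, no call was left in intron counts or in share. In these fits 1 arm held a single library, which was assumed to vary like the other groups. The median change stayed between -0.46 and -0.43 in intron counts and between -0.68 and -0.57 in share. In intron counts the split was 3 higher and 3 lower when libraries were scaled by intron counts, and 19 and 4 by DESeq2, which also scaled by them. Once each library's GC trend was removed, and its level with it, the share was higher in 8 and lower in 10. This comparison and the serum response in siPFDN5 use the same 2 libraries of that label.

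The genes named in this comparison had modest counts. KRT32, a hair keratin, stood at 0.392 and 0.417 CPM in introns, against 2.335 and 1.30 CPM in siControl after serum and 1.12 and 1.00 CPM in siPFDN2 after serum (log2 change -2.15, adjusted p 0.0144). Its intron share was 40.0% and 34.3%, against 55.8% and 54.55%. RFXAP, a regulator of MHC class II genes, stood at 0.392 and 0.359 CPM against 1.46 and 0.901 CPM (-1.64), and CENPM, a centromere protein, at 0.280 and 0.521 CPM against 2.14 and 1.24 CPM (-2.05). TPM2, a tropomyosin that winds around actin filaments, had a share of 0.540% and 0.630% against 2.65% and 2.04%, a log2 change of -2.01 in the ratio (adjusted p 0.0201), with exon levels of 193.3 and 188.0 CPM against 115.1 and 133.6 CPM. C1orf52 changed by -1.705 in the ratio. EGR1 went the other way, with a ratio change of 1.12 (adjusted p 0.0211), and CRYBA1, a lens crystallin with few exonic counts, at 1.39. A higher ratio need not mean more intronic RNA. In the serum response in siPFDN5, the intron counts of CRYBA1 changed by -1.99 (edgeR's quasi-likelihood test, adjusted p 0.00263). Groups that do not overlap were a condition for naming the genes of this comparison.

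**Figure D5:**
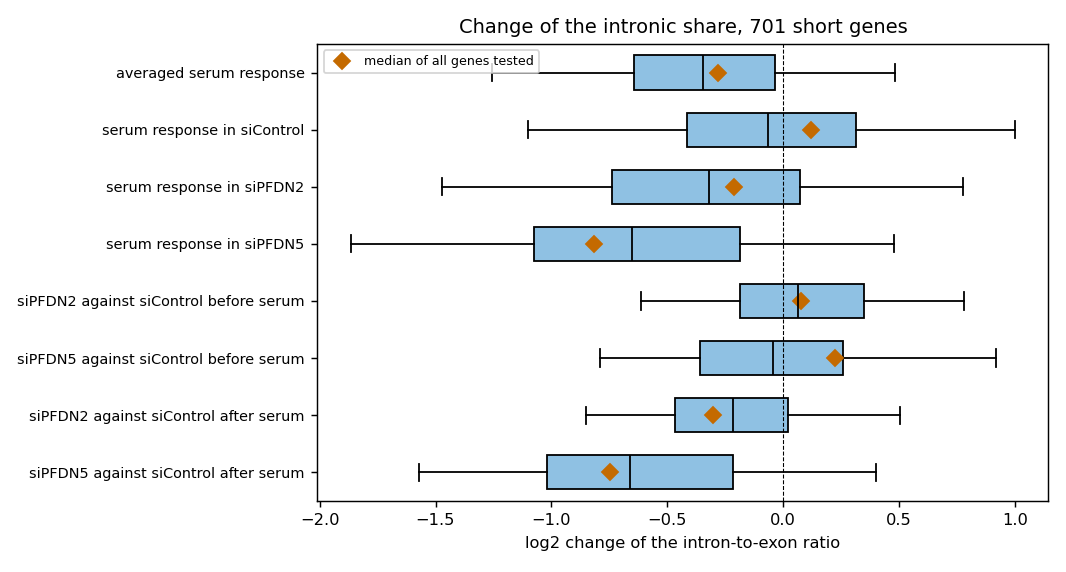
Boxes show the log2 change of the intron-to-exon ratio over 701 short genes in 8 comparisons, with the median as a line, the quartiles as box edges and whiskers from the 5th to the 95th percentile. Diamonds mark the median over all genes tested; it lies at -0.75 for the libraries labelled siPFDN5 after serum against siControl, where the short genes have a median of -0.66.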

How the data were processed

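Count tables deposited by the authors were used, 1 over gene bodies and 1 over exons. Per the file headers, featureCounts 1.5.2 assigned read pairs to Ensembl 87 genes on GRCh38, required both mates to map, let a pair count for every gene it overlapped, ignored strand and set no option for multiply mapped reads. HISAT2 and kallisto are named in the submitters' processing notes. Transcript estimates per sample and 6 columns that match no sample were not used. Gene types came from GENCODE 29.

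Intron counts are gene-body counts minus exon counts, and no difference was below 0. In edgeR 4.0.16 (R 4.3.3), libraries were scaled by TMM factors of the gene-body counts, genes were filtered by filterByExpr, and a quasi-likelihood fit with 1 mean per group was made. The share was tested as the interaction of part (intron or exon) and group, with the library as a block. Calls are at a Benjamini-Hochberg adjusted p under 0.05 over all genes tested, two-sided. The scripts were tested on simulated data. Alternatives were DESeq2 1.42.0, other scalings, no filter, a replicate block, removal of each library's GC trend, and each library left out. DESeq2 used its own scaling, from intron counts for introns and from exon counts for exons. The GC trend was a smooth curve of each library's deviation over GC content, fitted to intron and exon counts separately. It held the library's level, so a shift common to all genes was removed with it.

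The short genes, gene lists and tests were chosen with earlier results of these data known. Named genes are up to 10 per direction for the averaged serum response and 3 for other comparisons, with at least 50 intronic counts on average and groups that do not overlap, those of extreme density or share, those nearest the length limit, and the most abundant of each list. Others are named to describe their list.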

Additional observations from a re-analysis of the deposited data

Results flagged for a closer look

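For 7 genes named by a test, serum moved every library of 1 siRNA in one direction and every library of another in the opposite direction. Whether the responses differ was not tested, and each group has 2 libraries. The share of all genes with this pattern is not given here. RFXAP, KRT32, TPM2, C1orf52 and CRYBA1 were named by comparisons that use the libraries labelled siPFDN5 after serum. Their values there were thus part of the choice. In each case siPFDN5 is the one that moved opposite to siControl, and its values rest on the libraries with that label after serum, in which PFDN5 was not lowered.

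In intron counts, the log2 serum response of RFXAP was 0.60 in siControl and -1.80 in siPFDN5, that of KRT32 was 0.72 in siControl, 0.28 in siPFDN2 and -1.25 in siPFDN5, that of CDHR5, a protocadherin of the brush border, was 0.88 in siControl and -0.67 in siPFDN5, and that of C1orf52 was 0.44 in siControl, 0.77 in siPFDN2 and -0.49 in siPFDN5. In the intron-to-exon ratio, the response of RFXAP was 1.01 in siControl and -1.56 in siPFDN5, and that of KRT32 was 0.27 in siControl, 0.34 in siPFDN2 and -1.05 in siPFDN5. TPM2 changed by 1.24 in siControl, 0.53 in siPFDN2 and -0.55 in siPFDN5, and RGS2 by 0.71 in siControl and -0.12 in siPFDN5. CRYBA1 ran the other way, with -0.80 in siControl, -0.75 in siPFDN2 and 0.93 in siPFDN5.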

How the results depend on the processing

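Counts below are short genes called. For the averaged serum response, exon counts gave 470 with the GC trend removed, 326 with no filter and 86 without the 4 siPFDN5 libraries. Intron counts gave 156 by DESeq2 and 116 without those 4 libraries, and the share gave 25 without them. Within siControl, removing the GC trend gave 82 in intron counts and 39 in share, and the share gave 23 with no filter and 23 when only genes that overlap no other were fitted. Within siPFDN2, intron counts gave 149 with library size only, 154 with no filter and 162 with only non-overlapping genes, and the share gave 45 with the GC trend removed, 41 with no filter and 38 with only non-overlapping genes. Within siPFDN5, the share gave 62 with the GC trend removed. For siPFDN5 against siControl after serum, intron counts gave 23 by DESeq2, 33 with the GC trend removed, 6 when scaled by intron counts and 107 with library size only, and the share gave 18 with the GC trend removed. Before serum the same intron contrast gave 6 by DESeq2, 4 with the GC trend removed, 10 with no filter and 6 with only non-overlapping genes. With no filter, siPFDN2 against siControl gave 1 before and 1 after serum. The causes of these differences were not tested.

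The fall of the median share was -0.490 points for genes whose longest intron had at least 500 bases (exact permutation test, p = 0.0648) and -0.256 points without the 4 siPFDN5 libraries. The change of the pooled share was -0.390 points without the 20 genes with the most counts (exact permutation test, p = 0.0278). The log2 short-to-long change turned to -0.019 without those 20 genes and to -0.14 without the 4 siPFDN5 libraries.

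When 1 library was left out, the median share changed by -0.4655 to -0.3205 points, the short-to-long value by -0.050 to 0.17 (negative without siControl after serum replicate 2), and siPFDN2 minus siControl by -0.187 to 0.0170 points (positive without siPFDN2 after serum replicate 2). For the averaged response, exon counts gave 127 (without siPFDN5 after serum replicate 2) to 654 (without siPFDN2 before serum replicate 1), intron counts 156 to 306 and the share 102 to 260. Intron counts gave 18 to 62 in siControl, 16 to 224 in siPFDN2 and 29 to 141 in siPFDN5, and the share 1 to 56, 1 to 63 and 7 to 223, with 7 left without siPFDN5 before serum replicate 1. For siPFDN2 against siControl, intron counts gave 0 to 32 before serum (32 without siPFDN2 replicate 1) and 0 to 8 after it, and the share 0 to 31 after it (31 and 8 without siControl after serum replicate 2). For siPFDN5 against siControl, intron counts gave 0 to 12 before and 0 to 106 after serum, and the share 0 to 14 and 0 to 214.

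Same-numbered replicates did not deviate together in every pair of groups. Over 15 pairs of groups the deviations correlated at -0.322 to 0.592, with 4 over 0.1. Whether some groups shared a pairing or a batch was not tested. With the replicate number as a block, intron counts of 46 and the share of 4 short genes were called within siPFDN2, and no other count moved by over 1.5 times. Results for single named genes kept direction and call in 1255 alternatives and lost the call in 135, and none reversed.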
